A study of Mus musculus with 8 samples.

Results

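The genes described here encode the nuclear subunits of the mitochondrial oxidative phosphorylation system. They were chosen by name, as the genes whose symbols in the array files begin with Nduf (letters a, b, c, s or v), Cox4 to Cox8, Atp5 or Uqcr, together with Sdha, Sdhb, Sdhc, Sdhd, Cyc1 and Cycs. The rule itself uses no measured value, but it was set with earlier results of these data known. The rule found 117 of 41174 probes, for 84 of 27670 gene names. Of these members, 81 of 84 could be tested, among 17996 tested genes. The members comprise 35 genes of complex I, 4 of complex II, 8 of complex III, 1 for cytochrome c, 18 of complex IV and 15 of complex V. A further 3 carry such a name without being a subunit: Ndufaf1 is an assembly factor of complex I, Emc8 (Cox4nb in the files) belongs to the endoplasmic reticulum membrane protein complex, and Dmac2l (Atp5s in the files) is coupling factor B of ATP synthase.

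The study measured RNA in CD4 T cells sorted from spleen and lymph nodes, which were pooled, of C57BL/6 males aged 15 weeks. Its 4 groups were labelled CD44lo, CD44hi, Treg (regulatory T cells) and naive, with 2 samples each on 8 single-colour Agilent arrays. Ox40-cre/ROSA-YFP mice are named in the title. In them a Cre driven by Ox40, a receptor of activated T cells, turns on a lasting yellow fluorescent mark, and the labels do not state which groups were YFP-positive or which surface proteins set the gates. CD44 is an adhesion receptor that is raised on T cells after they meet antigen. The labels do not say whether the 2 samples of a group came from separate animals, so every p-value here measures the spread between the samples at hand and no more, and that spread may be technical.

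Oxidative phosphorylation makes most of the ATP of a resting lymphocyte. Complex I (NADH dehydrogenase) and complex II (succinate dehydrogenase) pass electrons to coenzyme Q, complex III passes them on to cytochrome c, and complex IV (cytochrome c oxidase) gives them to oxygen. Complexes I, III and IV pump protons while they do so, and complex V (ATP synthase) lets the protons return and makes ATP. Naive and memory T cells are known to rely on respiration, effector cells take up more glucose as they divide, and regulatory T cells are known for a more oxidative metabolism than effector cells. Most subunits are built from nuclear genes, a few from mitochondrial DNA, which were not analysed here.

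The probes of Atp5b, the catalytic beta subunit of ATP synthase, are shown because the naive arrays differed between them. They lie on the plus strand of chromosome 10 in build mm7, at chr10:127585810-127586488, chr10:127586901-127586960 and chr10:127591587-127591646, in the order of the transcript from its 5′ end. The interval of the first is longer than its 60 bases, and of the last one the first 30 bases are printed.
Atp5b probe nearest the 5′ end: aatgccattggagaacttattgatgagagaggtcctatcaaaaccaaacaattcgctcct
Atp5b middle probe: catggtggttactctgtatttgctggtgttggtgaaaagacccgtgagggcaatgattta
Atp5b probe nearest the 3′ end: acaagagccttgattgaagatgtgatgttc

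Many of these genes share binding motifs for a few transcription factors, and 3 promoters are shown for that reason and for Cox7a2l, the member with the lowest p-value. Each is the 250 bases before the transcription start from RefSeq (GRCm38.p6, minus strand), at chr17:83514334-83514583 for Cox7a2l, chr5:115348959-115349208 for Cox6a1 and chr6:50566570-50566819 for Cycs. Capitals mark matches to any of 4 motifs, on either strand.
Cox7a2l promoter: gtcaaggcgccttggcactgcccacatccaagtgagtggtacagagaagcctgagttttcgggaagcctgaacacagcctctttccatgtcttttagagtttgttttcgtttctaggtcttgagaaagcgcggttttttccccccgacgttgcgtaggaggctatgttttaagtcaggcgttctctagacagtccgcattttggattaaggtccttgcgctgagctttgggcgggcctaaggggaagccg
Cox6a1 promoter: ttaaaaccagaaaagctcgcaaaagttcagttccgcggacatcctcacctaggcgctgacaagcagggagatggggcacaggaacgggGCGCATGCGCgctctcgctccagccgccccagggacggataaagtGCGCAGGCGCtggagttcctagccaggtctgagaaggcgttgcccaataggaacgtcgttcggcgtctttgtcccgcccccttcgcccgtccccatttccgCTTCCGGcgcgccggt
Cycs promoter: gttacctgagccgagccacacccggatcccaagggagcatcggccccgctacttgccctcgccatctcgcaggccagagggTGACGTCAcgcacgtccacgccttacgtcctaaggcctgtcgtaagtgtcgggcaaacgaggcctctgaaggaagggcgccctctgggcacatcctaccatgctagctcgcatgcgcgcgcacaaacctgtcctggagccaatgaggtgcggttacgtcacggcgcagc

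The motifs were the consensus of NRF1, which the capitals in Cox6a1 near its middle show in 2 forms, CCGGAAG for GABPA and other ETS factors, YY1's AAGATGG and CREB's TGACGTCA, searched on both strands from 250 bases before to 50 bases after the start. None of the 4 contains another. RefSeq promoters were at hand for 68 of the 84 members and for 27025 genes in all. The NRF1 motif was in 17 of 68 members (25%) and in 5.19% of all genes, and the ETS motif was likewise in 17 of 68 members (25%), against 9.93% of all genes. YY1's motif stood in 11 members (16.2%) and in 7.28% of all genes, and CREB's in 5 members (7.35%) and in 2.03% of all genes. At least 1 of the 4 was found in 43 of 68 members (63.2%) and in 21.4% of all genes. Cox6a1, the common form of a complex IV subunit, held 2 matches to the NRF1 motif and 1 to the ETS motif. Atp5h, Atp5k and Sdhd also held both motifs, so 4 of 68 members did (5.88%), against 1.12% of all genes. Cycs held a match to the CREB motif in the bases shown, and Cox7a2l held no match to any of the 4 in its window. These are matches of letters and not shown sites of binding.

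Between 59.2% and 68.8% of probes were well above background on an array, and the 75th percentile of the signal, to which each array was scaled, lay between 991 and 1337 on 7 arrays and at 639 on naive array 2. The 6 T cell markers measured, Cd3d, Cd3e, Cd3g, Cd4, Lck and Cd5, were well above background on all 8 arrays. Cd44 was highest on both CD44hi arrays (log2 signal 4.50 and 4.39), Foxp3 was highest on both Treg arrays (2.77 and 2.68), and Foxp3 was also 5.64 higher in CD44lo and 4.88 higher in CD44hi than in naive on the log2 scale (limma adjusted p = 0.000169 and 7.97e-05). Each of the 2 slides held 1 array of every group, so slide and group were not confounded. Genes that mark cell division were called higher for 3, 7 and 7 of 8 listed genes in CD44lo, CD44hi and Treg against naive. Of all genes, 4.53%, 13.2% and 11.6% were called higher in these comparisons.

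All 81 tested members were well above background on all 8 arrays, so the filter on dim probes kept none through a single group. The other 3, all of them isoforms of complex IV subunits known from other tissues, were dim. Cox4i2, the lung isoform, and Cox8c, the testis isoform, were well above background on 1 of 8 arrays, and Cox8b, the heart and muscle isoform, on 0 of 8. Levels below are log2 signal relative to the 75th percentile of the array, given for array 1 and then array 2 of a group, and levels of different genes cannot be set against each other because each has its own probe.

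Naive array 2 stood apart for these genes. It gave the highest signal of the 8 arrays for 73 of 81 members (90.1%), where the same held for 43.4% of all tested genes. Naive array 2 exceeded naive array 1 in 79 of 81 members, with a median difference of 0.65 in log2, and by a median of 0.25 over all tested genes. The same difference had a median of 0.08 for the members in CD44lo, 0.12 in CD44hi and -0.05 in Treg. Quantile normalization left a median naive difference of 0.31 over the members and 0.13 over all tested genes. Naive array 2 was then highest for 47 of 81 members. The authors' deposited table gave medians of 0.30 for the members and 0.1 for all tested genes, and again 47 of 81. Over the other 7 arrays a member's whole range was small, with a median of 0.34, and it was under 1 for 80 of 81 members.

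**Figure D1:**
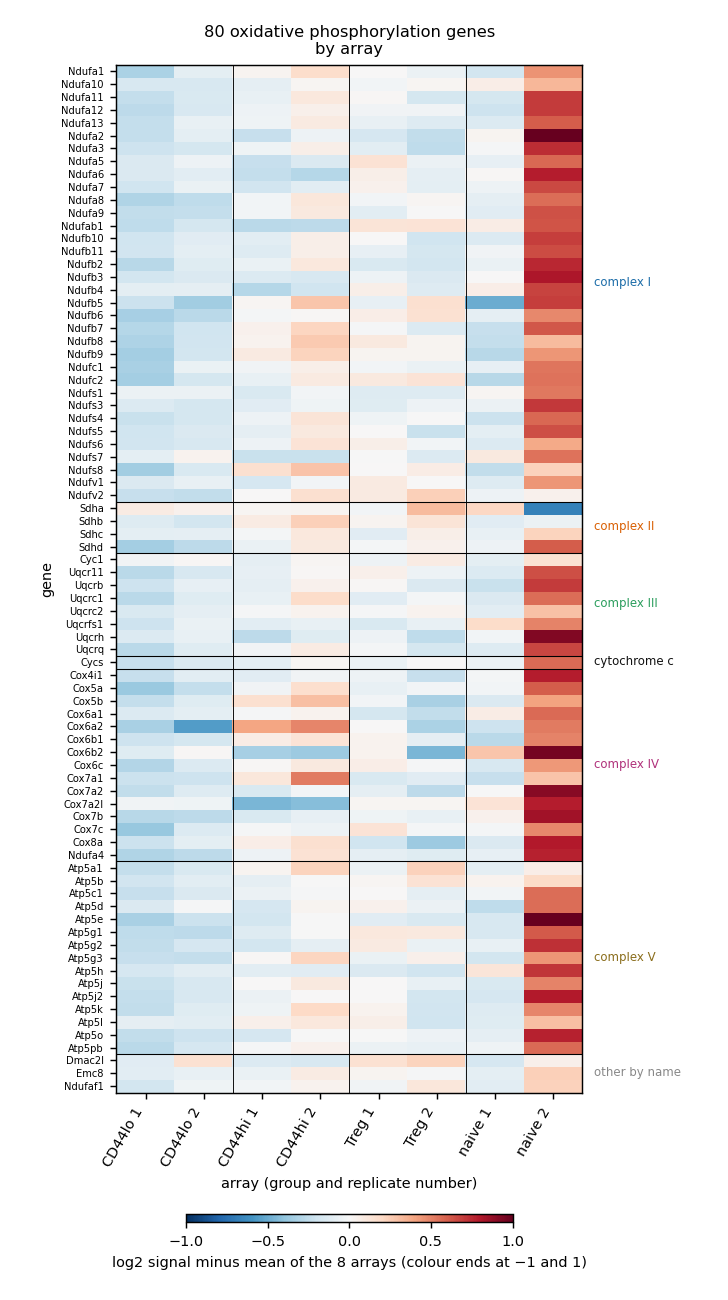
Log2 signal of 80 of the 81 tested members (rows, by complex) on each of the 8 arrays (columns), minus the gene's mean over the 8 arrays. Naive array 2 is the highest array for 73 of the 81 genes, with Sdha among the exceptions, and CD44lo array 1 is the lowest for 43.

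By complex, this difference had a median of 0.71 over the 35 genes of complex I, 0.75 over the 8 of complex III, 0.68 over the 15 tested genes of complex IV and 0.63 over the 15 of complex V. In complex II its median was 0.18 over 4 genes. Sdha, the flavoprotein of complex II, had the opposite sign, with a difference of -0.88. Its sign depended on the probe, since a second probe nearer the 3′ end of the transcript had a difference of 0.19.

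The probes of Atp5b printed above showed the same dependence on position. At the probe nearest the 5′ end the log2 signal was 1.86 and 1.85 in CD44lo, 1.98 and 1.98 in CD44hi, 1.85 and 2.22 in Treg, and 2.08 and 0.22 in naive. Naive array 2 thus lay below all 7 other arrays there. At the middle probe it lay 0.81 below naive array 1, with 3.68 against 4.48, and at the probe nearest the 3′ end it lay 0.15 above, with 6.52 against 6.36. Over 3436 accessions with probes at separate positions, the naive difference (array 2 minus array 1) was larger at the 3′ probe than at the 5′ probe in 76.4%, and the same difference was larger there in 63.2% for CD44lo, 41.5% for CD44hi and 38.5% for Treg. Among the 17 members with such a pair it was larger at the 3′ probe for 11, and the same count was 10 in CD44lo, 8 in CD44hi and 9 in Treg. The naive difference of these 17 had a median of 0.49 at the 5′ probe and 0.53 at the 3′ probe, where all 3436 accessions had -0.15 and 0.29. In Emc8 the naive difference was smaller at the 3′ probe, with 0.34 at the 5′ probe and -1.88 at the 3′ probe. The part that probe position plays in the members' high signal on naive array 2 was not tested.

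**Figure D2:**
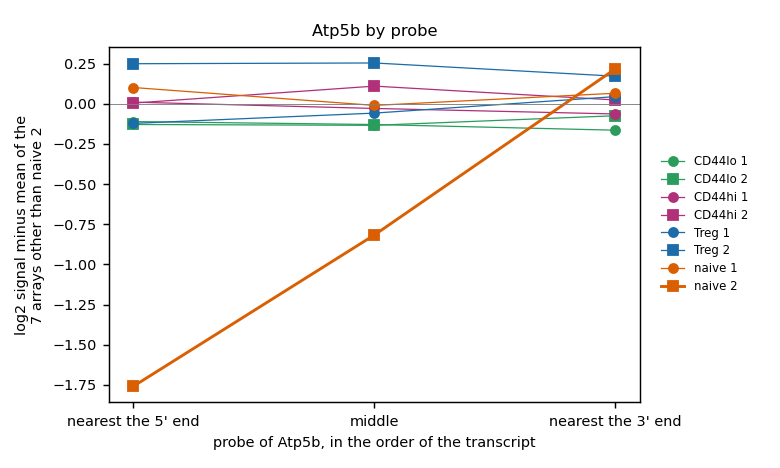
Log2 signal of the 3 Atp5b probes, in transcript order, on each of the 8 arrays, minus the mean of the 7 arrays other than naive array 2. Naive array 2 lies far below the rest at the 5′ probe and slightly above all of them at the 3′ probe, while the other 7 arrays keep close to 0 at every probe.

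Against naive, few members passed the test and nearly all lay below 0. In CD44lo, 0 of 81 members were called (limma, Benjamini-Hochberg adjusted over all tested genes; 8 had an unadjusted p under 0.05), where 5.29% of all genes were called. In CD44hi, Cox7a2l and Cox6b2 fell and 0 rose, so 2 of 81 were called, against 27.8% of all genes. In Treg, 0 of 81 were called by limma (4 had an unadjusted p under 0.05), against 21.9% of all genes. All 3 comparisons share the naive arrays, so their likeness adds nothing.

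The median log2 difference of the members was -0.44 in CD44lo, -0.24 in CD44hi and -0.28 in Treg against naive. Over all tested genes it was -0.13, -0.15 and -0.20. Without naive array 2 the members' medians were -0.08, 0.10 and 0.06, so the direction in CD44hi and Treg rested on that array. On slide 1, which held naive array 2, CD44lo had a member median of -0.72, CD44hi of -0.64 and Treg of -0.61. On slide 2, which held naive array 1, the medians came to -0.13, 0.16 and 0.02 in the same order. Without naive array 1, leaving naive array 2 alone and assumed to vary like the other groups, 68, 56 and 63 members were called lower by limma in CD44lo, CD44hi and Treg, where the shares of all genes were 26.7%, 32.8% and 33.9%. Without naive array 2 limma called 0 members in CD44lo against naive (4.6% of all genes), 1 in CD44hi (27.8% of all genes) and 0 in Treg (20.2% of all genes).

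Scaling also moved these directions. With 75th-percentile scaling 3, 12 and 8 of 81 members lay above 0 in CD44lo, CD44hi and Treg against naive. With quantile normalization it was 12, 39 and 36, with medians of -0.16, -0.00 and -0.02. Both arrays lay below both naive arrays for 47 members in CD44lo (36% of all genes), 21 in CD44hi (39.3% of all genes) and 22 in Treg (42.1% of all genes). Both lay above for 1, 2 and 4 members, where the shares of all genes were 18.6%, 23.3% and 21.4%.

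**Figure D3:**
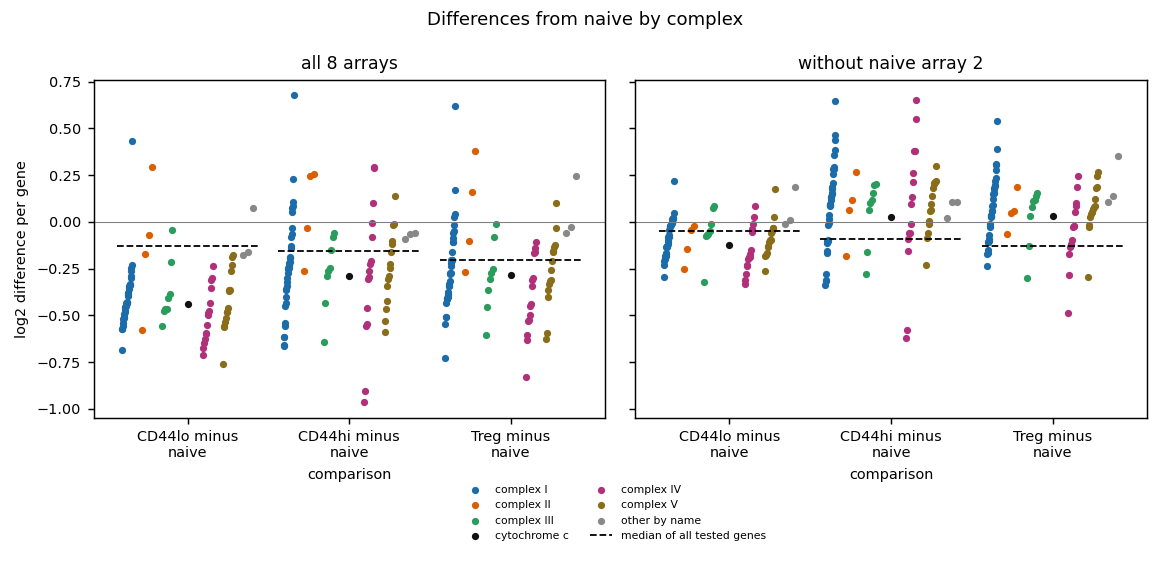
Log2 difference from naive of every tested member (points, coloured and ordered by complex) in CD44lo, CD44hi and Treg, with all 8 arrays at the left and without naive array 2 at the right, and with the median of all tested genes as a dashed line. With all arrays most points lie below 0; without naive array 2 the members' medians are -0.08, 0.10 and 0.06.

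The precision of a single gene was modest. The 95% interval of a member's difference had a median half-width of 0.56 in log2. It lay within 1 of 0 on both sides for 41 members in CD44lo, 63 in CD44hi and 58 in Treg against naive. It did so for 76 of 81 in CD44hi against CD44lo, 78 in Treg against CD44lo and 79 in Treg against CD44hi. A change of more than log2 1 is therefore outside the interval of most members in the comparisons without naive. An exact permutation test of 2 arrays against 2 cannot go below p = 0.333.

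Complex I holds the largest number of members, 7 core subunits, which do the catalysis with those built from mitochondrial DNA, and 28 accessory ones. None was called in any comparison by limma. Against naive the accessory subunits had medians of -0.44 in CD44lo, -0.24 in CD44hi and -0.28 in Treg, and without naive array 2 of -0.08, 0.11 and 0.06. Ndufs1, the largest iron-sulphur subunit, had signals of 3.68 and 3.67 in CD44lo, 3.58 and 3.71 in CD44hi, 3.61 and 3.61 in Treg, and 3.76 and 4.26 in naive. Ndufv1, which binds NADH, had 3.94 and 4.00 in CD44lo, 3.91 and 4.05 in CD44hi, 4.17 and 4.08 in Treg, and 3.95 and 4.52 in naive. They varied by 0.18 and 0.25 over the 7 arrays other than naive array 2.

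Ndufs8, an iron-sulphur core subunit, had 1.23 and 1.36 in CD44hi and 0.72 and 0.92 in CD44lo, without overlap, a difference of 0.47 (limma adjusted p = 0.215). Ndufab1, the mitochondrial acyl carrier protein, had 1.83 and 1.83 in CD44hi and 1.84 and 1.92 in CD44lo, against 2.22 and 2.23 in Treg. Against naive (2.17 and 2.72) its CD44hi difference was -0.62 (limma adjusted p = 0.0629), and its 3 measured probes differed in sign there.

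Complex II, the sole entry point that is also an enzyme of the citric acid cycle, showed no called member. Sdhb, its iron-sulphur subunit, had 2.93 and 2.88 in CD44lo, 3.14 and 3.30 in CD44hi, 3.09 and 3.19 in Treg, and 2.95 and 3.00 in naive. The CD44hi and Treg arrays lay above those of CD44lo and naive, and this was 1 of few members in which the naive arrays were alike. The CD44hi difference from naive was 0.24 (limma adjusted p = 0.239), and in the authors' deposited table, tested the same way, it was 0.44 (limma adjusted p = 0.0367). Sdha had 2.24 and 2.20 in CD44lo, 2.18 and 2.19 in CD44hi, 2.13 and 2.47 in Treg, and 2.37 and 1.48 in naive. Sdhc and Sdhd, the membrane anchors, differed from naive by -0.17 and -0.58 in CD44lo, -0.03 and -0.26 in CD44hi, and -0.10 and -0.27 in Treg.

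In complex III, which holds the Q cycle, all 8 members lay below 0 in each of the 3 comparisons with naive and 0 were called by limma, with unadjusted p under 0.05 for Uqcrfs1 in all 3. Without naive array 2 the direction turned for most of them in CD44hi and Treg, with 6 of 8 above 0 in each and medians of 0.11 and 0.09, and in CD44lo 2 of 8 lay above 0. Uqcrfs1, the Rieske iron-sulphur protein, had 3.23 and 3.37 in CD44lo, 3.33 and 3.36 in CD44hi, 3.28 and 3.37 in Treg, and 3.63 and 3.94 in naive. Here both naive arrays lay above the 6 others. The differences were -0.48, -0.43 and -0.45 in CD44lo, CD44hi and Treg (limma adjusted p = 0.188, 0.0907 and 0.0903), and -0.32, -0.28 and -0.30 without naive array 2. Cyc1, the cytochrome subunit that hands electrons to cytochrome c, varied the least of the 8 over the arrays other than naive array 2, with 3.14 and 3.19 in CD44lo, 3.09 and 3.20 in CD44hi, 3.13 and 3.26 in Treg, and 3.08 and 3.33 in naive. Uqcrc1, a core protein, had differences of -0.40, -0.15 and -0.28. Cycs, cytochrome c itself and also a trigger of apoptosis once released, had 3.45 and 3.54 in CD44lo, 3.58 and 3.70 in CD44hi, 3.61 and 3.68 in Treg, and 3.62 and 4.25 in naive.

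Complex IV held both called members, each measured by 1 probe. Cox7a2l, a relative of subunit 7a that links complexes III and IV into supercomplexes, had 4.17 and 4.21 in CD44hi, 4.60 and 4.59 in CD44lo, 4.65 and 4.66 in Treg, and 4.77 and 5.42 in naive. Both CD44hi arrays lay below the 6 others, and within each group other than naive the pair differed by little. C57BL/6 mice are known to carry a shortened form of this gene. Cox7a2l fell 1.87-fold in CD44hi against naive, by log2 -0.90 ± 0.22 (SE; limma adjusted p = 0.0254), and without naive array 2 by -0.58 (adjusted p = 0.0146). Against CD44lo the CD44hi difference was -0.40 (limma adjusted p = 0.348) and Treg against CD44hi was 0.46 (adjusted p = 0.306), and without naive array 2, whose spread enters the shared error, the adjusted p was 0.0344 and 0.0253.

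Cox6b2, known as the testis isoform of subunit 6b, had -2.14 and -2.17 in CD44hi, -1.93 and -1.80 in CD44lo, -1.77 and -2.27 in Treg, and -1.53 and -0.85 in naive. Its difference in CD44hi against naive was -0.96 ± 0.27 (SE, limma adjusted p = 0.0387). Without naive array 2 it was -0.62, and the call did not hold. Both calls were lost without any 1 of the 6 arrays of CD44lo, CD44hi and Treg, and over all settings tried the limma adjusted p reached up to 0.107 for Cox7a2l and 0.147 for Cox6b2. The common isoform Cox6b1 had 0.59 and 0.66 in CD44hi and 0.25 and 1.01 in naive, a difference of -0.01. The remaining isoform pairs of complex IV showed no called change. Cox6a2, the heart and muscle isoform, had -4.64 and -4.54 in CD44hi, -5.36 and -5.59 in CD44lo, -5.03 and -5.35 in Treg, and -5.24 and -4.52 in naive. Cox6a2 was measured by 1 probe, of low signal though well above background on all 8 arrays. The CD44hi difference from CD44lo, 0.88 ± 0.26 (SE), was the largest positive difference of any member in the 6 comparisons, with a limma adjusted p of 0.0983, and 0.0303 without naive array 2. Its common counterpart Cox6a1 had 6.92 and 6.97 in CD44hi and 6.80 and 6.84 in CD44lo.

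Cox7a1, the other muscle isoform, had -2.12 and -1.72 in CD44hi and -2.44 and -2.44 in CD44lo, a difference of 0.53 (limma adjusted p = 0.226). Cox7a2, its common form, had 3.40 and 3.52 in CD44hi and 3.30 and 3.42 in CD44lo. The main regulatory subunit Cox4i1 had 5.82 and 5.95 in CD44lo, 5.94 and 6.02 in CD44hi, 6.00 and 5.82 in Treg, and 6.04 and 6.84 in naive. Apart from naive array 2 it varied by 0.21 over the arrays. Cox5a and Cox5b, which flank the catalytic core, differed between CD44hi and CD44lo by 0.38 and 0.41, with limma adjusted p of 0.398 and 0.334. A second, dimmer probe of Cox5a had the opposite sign in that comparison, at -0.76. Cox5a was -0.60, -0.22 and -0.34 from naive in CD44lo, CD44hi and Treg, and Cox5b was -0.31, 0.10 and -0.30. Among the others, Cox7b, Cox8a and Ndufa4, once counted with complex I, had differences from naive of -0.71 to -0.21 in the 3 groups. Without naive array 2 Cox8a and Ndufa4 were at 0.26 and 0.13 in CD44hi.

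**Figure D4:**
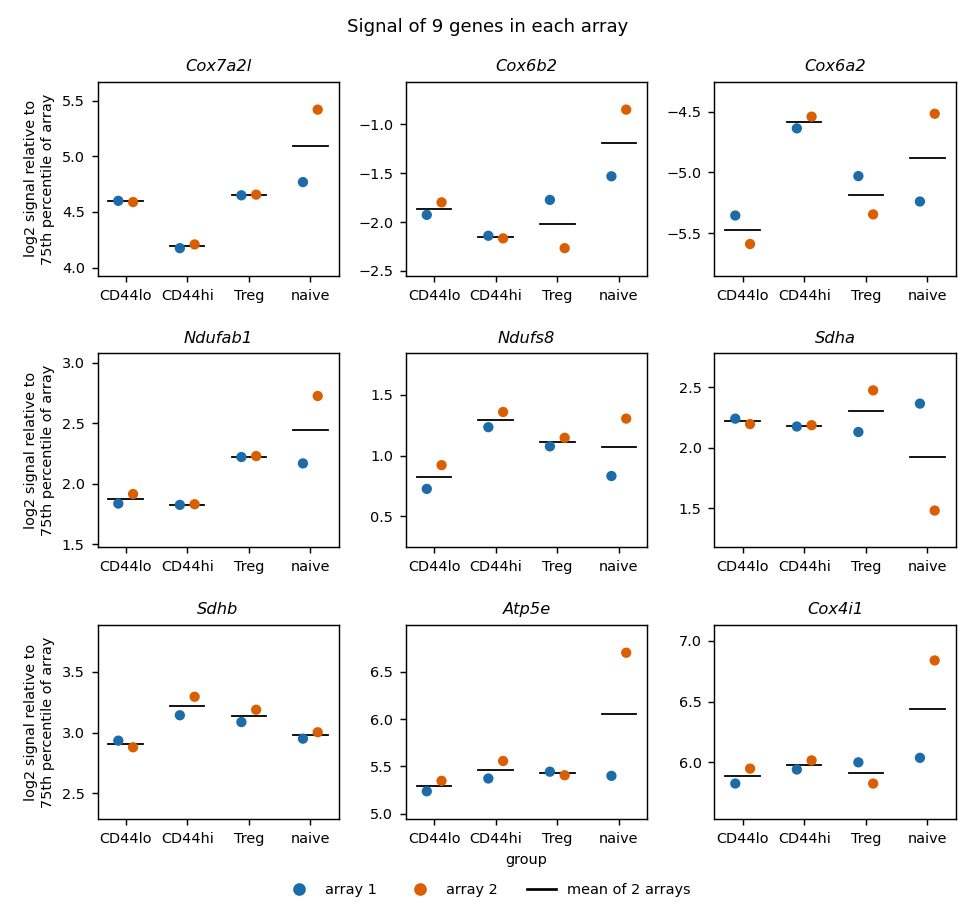
Log2 signal of 9 members on each array, by group, with array 1 and array 2 as separate points and the group mean as a line; each panel has its own vertical range. Cox7a2l is lowest in CD44hi, Cox6a2 is higher in CD44hi than in CD44lo, Ndufs8 is also higher in CD44hi than in CD44lo, Sdha is lowest on naive array 2, and Atp5e and Cox4i1 are highest there.

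Complex V also had 0 called members by limma in all comparisons. Atp5a1, the alpha subunit, had 5.30 and 5.39 in CD44lo, 5.57 and 5.76 in CD44hi, 5.48 and 5.77 in Treg, and 5.44 and 5.61 in naive. Atp5b, at its brightest probe, had 6.13 and 6.22 in CD44lo, 6.23 and 6.32 in CD44hi, 6.34 and 6.47 in Treg, and 6.36 and 6.52 in naive. Over the 7 arrays other than naive array 2 these genes of the catalytic head varied by 0.47 and 0.34. Atp5e, the small epsilon subunit, showed the widest gap between the naive arrays of any tested member, with 5.40 and 6.70, and 5.24 and 5.35 in CD44lo. The 3 genes for the proton-carrying c subunit, Atp5g1, Atp5g2 and Atp5g3, encode the same mature protein with different import sequences. They differed from naive by -0.48, -0.54 and -0.36 in CD44lo, by -0.29, -0.46 and -0.02 in CD44hi, and by -0.12, -0.32 and -0.14 in Treg, with none called by limma.

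CD44hi against CD44lo compares T cells of high and low CD44 without the naive arrays. Here 0 of 81 members were called by limma (2 had an unadjusted p under 0.05, Cox6a2 and Ndufs8), where 9.37% of all genes were called. The members nevertheless lay mostly above 0, in 68 of 81, with a median of 0.17. Among all tested genes 45.4% lay above 0 and the median was -0.04. Both CD44hi arrays lay above both CD44lo arrays for 57 members (30.2% of all genes) and below for 9 (37.6% of all genes). The difference was above 0 on both slides for 58 members (32.9% of all genes), with a median of 0.08 on slide 1 and 0.26 on slide 2. Over all tested genes the slide medians were -0.06 and -0.003. It was above 0 for 28 of 35 genes of complex I, 3 of 4 of complex II, 6 of 8 of complex III, 13 of 15 of complex IV and 15 of 15 of complex V. Without naive array 2 in the shared error, limma called 2 members here, Cox6a2 higher and Cox7a2l lower, with 14.2% of all genes called. Leaving out naive array 1 instead also took the spread of the naive pair out of the shared error, and the same members were called. The median stayed between 0.13 and 0.22 under all alternative settings. A median of this size is below the half-width of a single gene's interval.

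Other groups of genes moved in the same comparison. Cell division markers were called higher in CD44hi than in CD44lo for 7 of 8 (6.06% of all genes), with a summed relative signal (linear, in units of the 75th percentile) of 63.8 to 82.2 in CD44hi and 22.4 to 24.4 in CD44lo. The list of CD8 T cell and natural killer cell markers, 6 genes, summed to 21.9 to 25.8 in CD44hi and 9.15 to 9.20 in CD44lo. In CD44hi most of that sum was Nkg7, at a log2 signal of 4.38 and 4.10, against 1.66 and 1.74 in CD44lo. Cd8b1 ran the other way, with 1.77 and 1.75 in CD44hi and 2.36 and 2.30 in CD44lo, and made the largest part of the CD44lo sum. Cd8a and Ncr1 were well above background on 4 and 1 of 8 arrays. The 7 B cell markers summed to 2.28 to 2.54 in CD44hi and 1.50 to 2.09 in CD44lo, and the 7 myeloid and dendritic ones to 0.894 to 1.13 in CD44hi and 0.496 to 0.530 in CD44lo. In the myeloid list Lyz2 had -0.35 and -0.76 in CD44hi and -2.70 and -2.63 in CD44lo, while Fcgr3 had -4.10 and -4.29 in CD44hi and -2.86 and -2.80 in CD44lo, and 5 of 7 lay above 0. The part of these genes in the members' difference was not tested. In these bulk samples a change in which cells are present and a change in RNA per cell cannot be told apart.

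In Treg against CD44lo, 0 of 81 members were called by limma (1 had an unadjusted p under 0.05, Ndufv2), where 5.56% of all genes were called. Ndufv2, a core subunit of complex I, had 2.82 and 2.97 in Treg and 2.51 and 2.48 in CD44lo, a difference of 0.40 (limma adjusted p = 0.203). Members above 0 numbered 73 of 81, against 41% of all tested genes, with a median of 0.15 where all genes had -0.07. Both Treg arrays lay above both CD44lo arrays for 48 members (27.1% of all genes) and below for 2 (37.2% of all genes). Without naive array 2 the count was likewise 0 (8.3% of all genes). The slides were alike here, with member medians of 0.12 and 0.15. The cell division markers were called higher in Treg for 7 of 8 (3.7% of all genes), with sums of 40.1 to 55.2 in Treg, against 22.4 to 24.4 in CD44lo. B cell markers summed to 6.34 and 6.36 in Treg and to 1.50 to 2.09 in CD44lo. The list split, with 4 genes above 0 and 3 below. Cd79b (1.93 and 1.82 in Treg, -0.31 and 0.06 in CD44lo) and Cd74 (1.25 and 1.40 in Treg, -0.76 and -0.11 in CD44lo) made up most of the sum, while Cd79a had -6.43 and -6.44 in Treg and -5.82 and -6.20 in CD44lo. Pax5, well above background on 3 of 8 arrays, had -9.03 and -8.29 in Treg and -6.76 and -5.14 in CD44lo. The part of these genes was not tested.

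**Figure D5:**
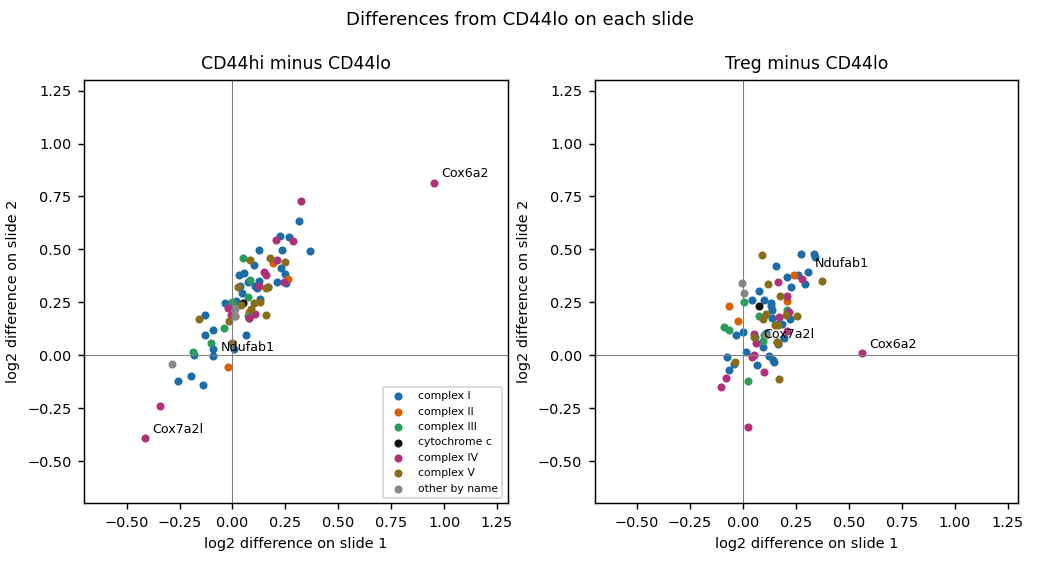
Log2 difference of each tested member on slide 1 (horizontal) and slide 2 (vertical), for CD44hi minus CD44lo at the left and Treg minus CD44lo at the right, 1 array of each group per slide. Most points lie right of and above 0 in both panels, by 58 of 81 members each, where 32.9% (left) and 30.2% (right) of all tested genes did. Cox7a2l lies below 0 on both slides in CD44hi alone.

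Treg against CD44hi compares the remaining pair of groups. By limma 0 of 81 members were called and 0 had an unadjusted p under 0.05, where 8.19% of all genes were called. The median was -0.04 for the members and for all genes alike, with 30 members above 0 and 51 below. Both Treg arrays lay above both CD44hi arrays for 15 members (27.5% of all genes) and below for 17 (32.1% of all genes). The members at the ends were Cox6a2 at -0.60 and Cox7a2l at 0.46, with limma adjusted p of 0.26 and 0.306. Ndufab1 followed with 0.40 (adjusted p = 0.337). Without naive array 2 in the shared error, limma called Cox7a2l and Ndufab1 higher in Treg, 2 members where 13.8% of all genes were called. The same members were called without naive array 1. The other 2 measured probes of Ndufab1 had differences of -0.28 and -0.06.

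Where a gene had several probes they did not always give the same sign. Of 23 members with 2 or more probes above background, the signs differed for 5 in CD44lo, 9 in CD44hi and 5 in Treg against naive, and for 9 in CD44hi against CD44lo, 10 in Treg against CD44lo and 5 in Treg against CD44hi. Against naive these were Atp5b, Emc8 and Sdha in all 3 groups, Atp5a1 and Ndufb8 in CD44hi and Treg, Cox5a and Dmac2l in CD44lo, and Atp5pb, Ndufa1, Ndufab1 and Uqcrc1 in CD44hi. In the other comparisons Atp5h, Cycs, Ndufa3, Ndufa7, Ndufa12, Uqcrh and Uqcrq were added. Fitted probe by probe, 3 of 110 member probes were called lower in CD44hi and 2 in Treg against naive, where 25.5% and 19.2% of all probes were called. The added ones were a dimmer probe of Uqcrq, a small subunit of complex III, with -1.53 and -1.77 in CD44hi, -1.50 and -1.75 in Treg, and -0.71 and -0.44 in naive, and a dim probe of Atp5pb, the stalk subunit b, with -3.80 and -4.19 in Treg and -3.15 and -2.37 in naive. The brighter probe of Uqcrq did not follow, with 4.85 and 4.98 in CD44hi, 4.87 and 4.72 in Treg, and 4.76 and 5.56 in naive.

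Genes that serve the system without being members were counted from 4 lists. Of 35 tested assembly factors, 0 were called in CD44lo against naive (limma), and 3 fell in CD44hi, where 14.5% of all genes were called lower, so the list's share was below that of all genes. These were Cox16, for complex IV, which fell by 0.89 in log2, Lrpprc, which stabilises mitochondrial messages and fell by 0.79, and Lyrm7, which serves the Rieske protein and fell by 1.21 (limma adjusted p = 0.02, 0.0124 and 0.016). In Treg against naive, where 10.3% of all genes were called lower and 11.6% higher, Cox16 and Lyrm7 fell by 0.89 and 1.19. Sdhaf1, which helps to insert the iron-sulphur clusters of Sdhb, rose there by 0.82 (limma adjusted p = 0.0204). Sdhaf1 was also 1.26 higher in Treg than in CD44hi (limma adjusted p = 0.0081). All of these passed without naive array 2 as well.

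Of 17 regulators of mitochondrial biogenesis, 9 fell and 0 rose in CD44hi against naive, where 14.5% of all genes were called lower. Myc, which drives cell growth, fell by 1.88 in log2 (limma adjusted p = 0.00308) and Pprc1, a coactivator of the PGC family, fell by 1.28 (adjusted p = 0.00213). Other genes that fell had log2 differences of -0.72 (Twnk, the helicase of mitochondrial DNA), -0.94 (Polg2, of its polymerase), -0.61 (Polrmt, its RNA polymerase), -0.58 (Ssbp1, which binds its single strand) and -0.64 (the coactivator Ppargc1b). Gabpb1 and Tfb2m, at -0.58 and -0.61, were called only with naive array 2 in the fit. In Treg against naive, where 10.3% of all genes were called lower, 2 of the 17 were: Ppargc1a and Pprc1 fell by 0.82 and 0.74, the first of them not called without naive array 2 (limma adjusted p = 0.112). Pprc1 was also lower in CD44hi than in CD44lo, at -0.79, and Myc and Twnk were 2.09 and 0.71 higher in Treg than in CD44hi. None of the 17 was called in CD44lo against naive or in Treg against CD44lo.

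The remaining lists were quiet. Among 8 tested carriers and porins of the mitochondrial membranes, Ucp2, of the uncoupling protein family, rose by 0.70 in CD44hi against naive (limma adjusted p = 0.019), where 13.2% of all genes were called higher. No other of the 8 was called in any comparison. All 8 lay above 0 in both CD44hi and Treg against CD44lo, with medians of 0.31 and 0.23. Of 10 tested genes for the synthesis of coenzyme Q, 0 were called by limma in any of the 6 comparisons.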

How the data were processed

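Per the file headers, the scanner images were quantified by Agilent software (Feature Extraction, version 9.5.1.1). The deposited spot values used are processed intensity values, with background already removed, beside detection flags (other), per the file headers. The authors' deposited value table is on a log2 scale and has array medians of 6.86 to 6.88; limma is the one tool named, per the submitters' processing notes. Each array's log2 intensity was set relative to its own 75th percentile. A gene was represented by its brightest probe and tested where both arrays of some group had that probe well above background. Gene names were updated through RefSeq. All 8 arrays entered 1 fit of the 4 groups in limma 3.58.1 (R 4.3.3; 4 residual and 2.62 prior degrees of freedom), with Benjamini-Hochberg adjustment over 17996 genes and 2-sided calls at 0.05. The fit was tested on simulated data.

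The members and the lists were chosen with earlier results of these data known. Named were the catalytic subunits, the isoform pairs, called members and members whose probes disagree. Others (such as Atp5e, Ndufs8, Ndufv2 and Uqcrq) were named after their values were seen, as extremes or as counts of 5 or fewer. The number of arrays limits the precision. Alternatives were other scalings, filters and probe rules, the slide or replicate number as a term, and leaving out each array. The values of 1 member are not reported here, though it is included in the counts and medians.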

Additional observations from a re-analysis of the deposited data

How the results depend on the processing

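The count of called members kept within 1.5 times of its value, or at 0, for all comparisons under normexp background correction, quantile normalization, the filter on all 8 arrays, averaging the probes of a gene and the slide as a term, except that 1 member was called in Treg against naive with normexp and with the slide term (limma). In CD44hi against naive the count of 2 became 8 with median centring, 4 with the authors' deposited table, 1 with the replicate block (Cox7a2l, while Cox6b2 lost its call), and 0 with no filter on dim probes or with only the 2 groups compared. In Treg against naive it became 4 with median centring, 1 with the authors' deposited table and 2 with each probe fitted on its own, an alternative chosen after seeing the data. With the authors' deposited table a single member (1) was called in CD44hi against CD44lo and 1 in Treg against CD44hi, and with only the 2 groups compared 1 in CD44hi against CD44lo. Leaving out 1 array gave 0 to 70 called members in CD44lo, 0 to 58 in CD44hi and 0 to 65 in Treg against naive, 0 to 2 in CD44hi against CD44lo, 0 in Treg against CD44lo and 0 to 2 in Treg against CD44hi. The high counts came without naive array 1. In CD44hi against CD44lo and in Treg against CD44hi the same members were called without either naive array. The cause of these moves was not tested. In CD44hi against naive the count was 0 without any 1 array of CD44lo, CD44hi or Treg, and 1 without naive array 2. Cox7a2l stayed below naive in CD44hi under all 18 settings, between -1.23 and -0.58, and was called by limma in 10 of them (adjusted p 0.0019 to 0.107). Cox6b2 lay between -1.31 and -0.62 and was called in 8 of 18 (adjusted p 0.0103 to 0.147). No called result changed its sign. The replicate numbers of the labels are not explained there. Deviations of same-numbered samples correlated between 0.0564 and 0.332 across genes, above 0 for each pair of groups, with 2 numbers only. Among the markers, Hba-a1 was -1.56, -1.61, -1.58 and -1.65 in the number 1 samples of CD44lo, CD44hi, Treg and naive. In the number 2 samples it was -3.58, -3.44, -4.23 and -3.02. Same-numbered samples thus shared some signal, and the main fit has no term for it. The replicate block left 1 call in CD44hi against naive. On a slide, CD44hi and Treg samples met CD44lo and naive samples of the other number. Depth in the sense of signal limited Cox4i2, Cox8b and Cox8c, and the 4 residual degrees of freedom limited single genes.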
